A study of Homo sapiens with 6 samples.

Results

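A set of 10 secreted proteins linked to stressed and senescent cells were followed through the induction of FOXM1 in cultured human cells: the chemokines CCL2, CXCL1, CXCL12 and IL8 (CXCL8 in current naming), the cytokines IL6, IL11, LIF and CSF1, the EGF receptor ligand AREG and the glycoprotein hormone STC1. They were chosen by name, and 7 of the 10 are among the 13008 genes of the authors' deposited comparison table. CXCL1, CXCL12 and AREG are not, and for them FPKM values (reads scaled to gene width and library total) are given. The RNA came from Tet-FLAG-FOXM1c-hTERT-RPE1, a telomerase-immortalised retinal pigment epithelial line with a tetracycline-inducible, FLAG-tagged FOXM1c transgene. The dox group (3 libraries, genotype label FOXM1 overexpression) received doxycycline at 1 µg/mL each 24 h over 48 h. The no dox group (3 libraries, treatment label none) carries the same line name but a wild-type genotype label. The design text does not say whether the line is a single clone, and doxycycline and induced FOXM1 cannot be told apart, because the groups differ in both.

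Many cells release such factors when damaged, arrested or inflamed, a programme called the senescence-associated secretory phenotype. CCL2 draws monocytes, while IL8 and CXCL1 draw neutrophils, and NF-κB, C/EBP and AP-1 factors are known activators of their genes. IL6, IL11 and LIF each bind a receptor of their own and then signal through the shared chain gp130 (gene IL6ST), JAK kinases and STAT3. Retinal pigment epithelium is a known source of CCL2, IL6 and IL8 in the inflamed eye. FOXM1, a forkhead transcription factor, is best known for activating genes of mitosis.

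Library depth was 15094498 to 49882123 reads, and no dox replicate 3 was the shallowest. FOXM1 itself was 15.1-fold higher with limma (adjusted p = 4.49e-06), at 69032 ± 5205 normalised counts under dox against 4562 ± 390.2 under no dox (SD over 3 libraries each). Of 12 pigment epithelial markers 4 reached 1 FPKM on average, KRT18, KRT8 and OTX2 being the highest (sums of the list of 73.2 to 104 FPKM in dox and 59.9 to 83.2 in no dox), and 7 lay under 0.1 FPKM, among them RLBP1, BEST1, TYR and PMEL, with TTR listed at 0 in all libraries. Of 8 fibroblast markers COL1A2, COL3A1, DCN and LUM lay under 0.1 FPKM. The 8 summed to 40.4 to 48.8 FPKM in dox and 44.8 to 58.0 FPKM in no dox libraries. Only THY1, PDGFRB and COL1A1, in that order the highest, exceeded 1 FPKM on average. None of 9 leukocyte markers did (sums of 0.345 to 0.549 FPKM in dox and 0.409 to 0.586 in no dox, CD3E listed at 0), nor any of 4 endothelial markers found (sums of 0.134 to 0.137 FPKM in dox and 0.114 to 0.147 in no dox). The part of these marker levels in the results was not tested. Since no label says that the replicates were separate cultures, every p-value reflects the spread among these 6 libraries alone, part of which may be technical.

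The cells expressed these 10 factors at very different levels. STC1 and LIF were abundant, CCL2, IL11 and CSF1 intermediate, IL8 low and IL6 close to the floor, and CXCL1, CXCL12 and AREG had almost no reads. In no dox libraries the FPKM averaged 32.6 ± 3.75 for STC1, 26.6 ± 1.36 for LIF, 8.12 ± 0.721 for CCL2, 6.98 ± 1.99 for IL11, 6.38 ± 1.26 for CSF1, 1.81 ± 0.788 for IL8 and 0.126 ± 0.0319 for IL6 (SD, n = 3 each). The neighbours CCL2, IL11 and CSF1 did not differ beyond their spread. The median tested gene stood at 2.21 FPKM in that group. STC1 lay above 95.7% of tested genes there and IL6 above 4.46%.

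The top of that order differed between the groups. LIF had 37.1, 34.8 and 29.9 FPKM in dox replicates 1, 2 and 3, and 27.6, 27.2 and 25.1 FPKM in the no dox replicates. STC1 had 25.9, 22.5 and 22.4 FPKM in the dox replicates, and 37.0, 30.9 and 30.1 FPKM in the no dox replicates. LIF therefore exceeded STC1 in each of the 3 dox libraries, and STC1 exceeded LIF in each of the 3 no dox libraries.

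Levels between genes depend on the length they are divided by. The gene width behind the deposited FPKM is longer than the whole genomic span for CCL2 (2473 against 1919 bases) and IL6 (9210 against 6119 bases), as for 16.4% of all genes in the comparison table. When reads were scaled to the merged exon length of GENCODE release 29 instead, the no dox averages were 44.3 for STC1, 30.6 for LIF, 17.7 for CSF1, 13.5 for IL11, 10.1 for CCL2, 2.38 for IL8 and 0.559 for IL6. CCL2 then came below CSF1 and IL11. LIF over STC1 in dox (39.0 and 32.0 on that scale) and STC1 over LIF in no dox held with both lengths.

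**Figure D1:**
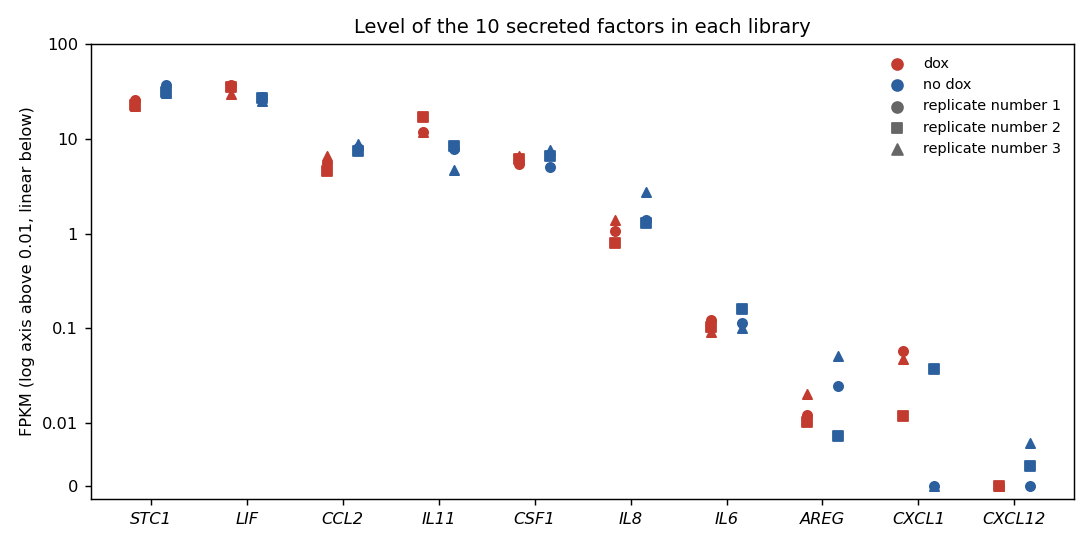
FPKM of the 10 factors in each library (y axis, logarithmic above 0.01 and linear below), dox in red left of no dox in blue, marker shape giving the replicate number. Genes run from STC1 at 30.1 to 37.0 FPKM in no dox libraries down to CXCL12, listed at 0 in all 3 dox libraries.

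Within the set the gp130 cytokines IL11 and LIF were higher in dox and CCL2, IL8 and STC1 lower, while IL6 and CSF1 were not separated from no change. The calls depend on whether libraries are compared within replicate numbers. Without such a block none of the 7 passed limma with Benjamini-Hochberg adjustment over all 13153 tested genes, of which 0.540% passed (0.319% higher and 0.220% lower). At an unadjusted limma p under 0.05 there were 4, IL11 and LIF higher and CCL2 and STC1 lower, against 13.0% of all genes. The edgeR quasi-likelihood test on recovered reads called 0 of the 7, against 0.515% of all genes (0.323% higher and 0.192% lower). DESeq2 on the same reads called 2, IL11 higher and STC1 lower, against 4.01% of all genes (1.68% higher and 2.34% lower). The authors' deposited table has the same 2 under an adjusted p of 0.05, against 2.78% of its genes (1.25% higher and 1.52% lower). It marks IL11 as higher but does not mark STC1 as lower. With the replicate number as a block limma called 5 of 7, 2 higher and 3 lower, where 22.5% of all tested genes passed (10.2% higher and 12.4% lower). The groups did not overlap for 4 of the 7 (IL11 and LIF higher, CCL2 and STC1 lower), against 19.1% of all genes (9.03% higher and the rest lower). The median log2 change over the 7 was -0.31, and -0.0022 over all tested genes. In these bulk libraries fewer cells making a factor and less of its RNA per cell cannot be told apart.

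**Figure D2:**
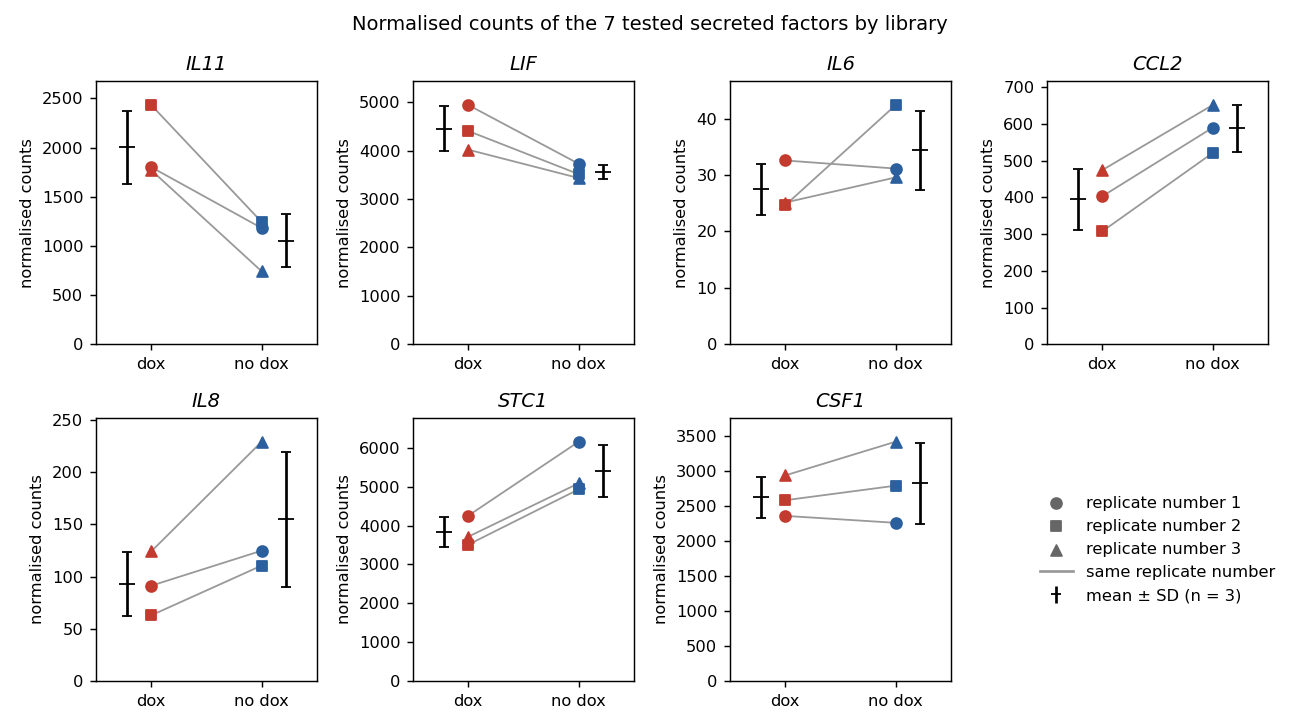
Normalised counts (y axes, from 0) of the 7 tested factors, dox left and no dox right, with lines joining libraries of the same replicate number and black bars for the mean ± SD (n = 3). All 3 lines fall to the right for IL11 and LIF and climb to the right for CCL2, IL8 and STC1, while IL6 and CSF1 each have 1 line against the other two.

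IL11, a fibrosis- and stress-linked cytokine of the gp130 family, moved most among the rises. It had 1802, 2434 and 1771 normalised counts in dox replicates 1, 2 and 3, and 1181, 1242 and 740.5 in the no dox replicates. The groups did not overlap, all 3 dox libraries being the higher ones, and no dox replicate 3 was the lowest. The averages were 2002 ± 374 in dox and 1055 ± 274 in no dox (SD, n = 3 each), and the log2 change was 0.95 (SE 0.21), or 1.93-fold. The adjusted p was 0.105 with limma, and 0.000247 with the replicate block (SE 0.10, 95% interval 0.73 to 1.16). The differences within replicate numbers were 0.61, 0.97 and 1.26 on the log2 scale, so all 3 pairs were higher. In the authors' deposited table IL11 has a log2 fold change of 0.93 with an adjusted p of 8.60e-05 and is marked as higher. Between 368 and 4359 reads per library stood behind these values, and the gene (ENSG00000095752) maps to the minus strand at chr19:55875757-55881831 (hg19).

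The 250 bases before the IL11 start are shown because it had the largest rise of the set (RefSeq, GRCh38.p14, chr19:55370464-55370713, minus strand, read in the direction of the gene). Capitals mark matches to the motifs searched on both strands: NF-κB GGNNTTTCC, AP-1 TGANTCA, C/EBP TTNNGCAAT, forkhead GTAAACA, the cell cycle element TTTGAA and the CCAAT box.
IL11: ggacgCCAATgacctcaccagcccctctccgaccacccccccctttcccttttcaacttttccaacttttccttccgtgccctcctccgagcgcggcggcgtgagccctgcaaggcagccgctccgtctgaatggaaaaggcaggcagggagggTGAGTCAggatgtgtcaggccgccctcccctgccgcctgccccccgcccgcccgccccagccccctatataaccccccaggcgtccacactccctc
An AP-1 match stands at -96 to -90 from the start and a CCAAT box at -245 to -241. Over 35116 RefSeq promoter windows of the same length, 6.57% hold the AP-1 letters, 32.0% CCAAT, 5.48% the NF-κB letters, 2.04% the C/EBP letters, 2.98% the forkhead letters and 13.3% TTTGAA. Those last 4 have no match in this window. A match is a run of letters, not a measured binding site, and a missing match does not show that no such site is there.

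LIF, the leukaemia inhibitory factor, rose less and more evenly. Normalised LIF counts were 4947, 4409.6 and 4022 in dox replicates 1, 2 and 3, and 3730.2, 3515 and 3435 in the no dox replicates. The groups did not overlap, although the lowest dox library exceeded the highest no dox library by little. The means were 4460 ± 464 in dox and 3560.2 ± 153 in no dox (SD, n = 3 each), with a log2 change of 0.32 (SE 0.09), or 1.25-fold. The limma adjusted p was 0.184, and 0.00131 with the replicate block (95% interval 0.22 to 0.42). The 3 pairs differed by 0.41, 0.33 and 0.23 on the log2 scale. LIF (ENSG00000128342) maps to chr22:30636436-30642840 (hg19), minus strand, with 1726 to 7926 reads per library.

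IL6, the best known cytokine of this family, was scarcely detected. Normalised IL6 counts were 32.6, 24.6 and 25.1 in the dox replicates, and 31.1, 42.4 and 29.6 in the no dox replicates. The groups overlapped, and no dox replicate 2 was the highest library. The log2 change was -0.31 (SE 0.27), with a limma adjusted p of 0.723, and 0.382 with the block. The 95% interval with the block ran from -0.83 to 0.21 on the log2 scale, and no difference was detectable with 14 to 48 reads per library. The gene (ENSG00000136244) maps to chr7:22765503-22771621 (hg19).

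Receptors of the gp130 cytokines were expressed at different levels, with OSMR and the shared chain highest and IL11RA lowest among those given here. By the deposited FPKM, OSMR exceeded the shared chain. Scaled to merged exon length, the shared chain exceeded OSMR (37.9 against 15.6 in dox, and 36.9 against 17.9 in no dox). IL6ST, gp130 itself, had 8.33 ± 0.493 FPKM in dox and 8.12 ± 0.406 FPKM in no dox libraries, and the log2 change of 0.010 had a 95% interval with the block from -0.11 to 0.13. LIFR, the LIF receptor chain, had 1.22 ± 0.0549 FPKM in dox and 1.17 ± 0.111 FPKM in no dox, with a log2 change of 0.04 and an interval with the block from -0.10 to 0.18. IL11RA, the IL11 receptor chain, had 0.0633 ± 0.0212 FPKM in dox and 0.0696 ± 0.0435 FPKM in no dox (SD, n = 3 each throughout), and its interval with the block, from -0.56 to 0.56 on the log2 scale, was wide. IL6R fell with the block. It had 71.9, 70.2 and 57.1 normalised counts in the dox replicates and 99.4, 112 and 115 in the no dox replicates, without overlap, the log2 change being -0.71 (SE 0.17, limma adjusted p = 0.117, and 0.00856 with the block).

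Of the 9 other gp130 cytokines and receptors tested, none passed limma without the block, and 2 rose and 2 fell with it, when 22.5% of all tested genes passed with the block. CLCF1, a secreted ligand of the ciliary neurotrophic factor receptor, changed by 0.33 (adjusted p = 0.239, and 0.00402 with the block). OSMR, the oncostatin M receptor chain, had 12.3 ± 1.55 FPKM in dox and 14.2 ± 2.14 FPKM in no dox (SD, n = 3 each), and changed by -0.23 (adjusted p = 0.533, and 0.0140 with the block). Among 11 JAK and STAT3 signalling genes 1 rose and 1 fell with the block, 18.2% of them, which is no more than the 22.5% of all tested genes; the fall was STAT3 (log2 change -0.20, limma adjusted p = 0.00771 with the block). SOCS1, a feedback inhibitor of JAK kinases, had a change of 0.47 that did not pass (0.138 with the block).

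CCL2, the monocyte chemokine, was lower in dox. It had 403, 307 and 474 normalised counts in dox replicates 1, 2 and 3, and 590.4, 522 and 652 in the no dox replicates. All dox libraries lay below all no dox libraries, and replicate 2 was the lowest of each group. The means were 395 ± 83.8 in dox and 588 ± 65.3 in no dox (SD, n = 3 each), and the log2 change was -0.59 (SE 0.17), or 0.665-fold. The limma adjusted p was 0.181, and 0.000756 with the replicate block (95% interval -0.76 to -0.42). The pairs differed by -0.55, -0.76 and -0.46. CCL2 (ENSG00000108691) maps to chr17:32582304-32584222 (hg19) and had 331 to 624 reads per library.

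IL8, the neutrophil chemokine, was lower within each pair but varied widely between replicate numbers. It had 91.2, 62.8 and 124 normalised counts in dox replicates 1, 2 and 3, and 125, 111 and 229 in the no dox replicates. The groups overlapped, because replicate 3 was the highest library of each group. The log2 change was -0.71 (SE 0.33, limma adjusted p = 0.428), and with the block the SE was 0.13, the 95% interval -1.0 to -0.42 and the adjusted p 0.00443. The pairs differed by -0.45, -0.81 and -0.88. Without no dox replicate 3 the unblocked change was -0.39, and without dox replicate 2 it was -0.46. IL8 (ENSG00000169429) maps to chr4:74606223-74609433 (hg19), with 106 to 132 reads per library.

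The 250 bases before the CXCL8 start are shown because known inflammatory control elements of this gene lie there (RefSeq, GRCh38.p14, chr4:73740319-73740568, plus strand), with capitals marking matches to the same motifs.
CXCL8: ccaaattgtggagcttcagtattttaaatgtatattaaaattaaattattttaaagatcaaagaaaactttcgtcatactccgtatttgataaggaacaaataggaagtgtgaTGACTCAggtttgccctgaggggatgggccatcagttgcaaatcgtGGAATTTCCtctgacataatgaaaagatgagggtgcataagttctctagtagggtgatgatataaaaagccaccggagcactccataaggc
The window holds an AP-1 match at -137 to -131 and an NF-κB match at -91 to -83, and no match to the C/EBP, forkhead, TTTGAA or CCAAT letters. Elements that differ from the searched letters, other forms of a C/EBP site among them, would be missed. No match therefore does not show that an element is absent. The IL11 window shares the AP-1 letters with the CXCL8 window and lacks the NF-κB letters. Of the 5 factors called with the block, IL11 and IL8 were matched to a promoter, while CCL2, LIF and STC1 were not.

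The remaining chemokines of the set were at the edge of detection. CXCL1, a neutrophil attractant from the same gene cluster as IL8, had 0.0574, 0.0120 and 0.0476 FPKM in dox replicates 1, 2 and 3, and was listed at 0, 0.0371 and 0 FPKM in the no dox replicates. In the smallest whole-number ratio these values correspond to 4, 1 and 2 reads in dox and 0, 2 and 0 reads in no dox. CXCL12, the ligand of CXCR4, was listed at 0 in all dox libraries and had 1 read each in no dox replicates 2 and 3. A count of 0 allows up to 3 reads, or 0.0124 FPKM for CXCL12 in the shallowest dox library, for counting error only. No difference was detectable at this depth for either gene, and CXCL1 shares long stretches with CXCL2 and CXCL3, so its few reads are uncertain in origin.

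Chemokine partners were sparse as well. Of 24 symbols listed as other chemokines, CCL26 and CXCL16 had enough reads to be tested. CCL26, an eosinophil attractant, had 31.2, 19.3 and 34.0 normalised counts in the dox replicates and 8.36, 17.6 and 9.93 in the no dox replicates, a log2 difference of 1.20 (SE 0.39, limma adjusted p = 0.244, and 0.0383 with the block). It passed the filter on low values only with its dox libraries, because replicate 2 alone of the no dox libraries reached 10 normalised counts. Over 5 fits with a block (limma, edgeR, and limma without each pair) its adjusted p ran from 0.0118 to 0.159, under 0.05 in 2. CXCL16 had a log2 change of -0.26 that did not pass in either fit. CXCR1 and CCR2, receptors for IL8 and CCL2, were listed at 0 in all 6 libraries. CXCR2, also a receptor for IL8, reached at most 0.0200 FPKM in dox and 0.0104 FPKM in no dox, and was listed at 0 in replicate 3 of each group. CXCR4 was listed at 0 in the no dox libraries and reached at most 0.00474 FPKM in a dox library. ACKR3, a scavenging receptor for CXCL12, had 44.3, 47.9 and 51.2 normalised counts in the dox replicates and 77.5, 88.0 and 97.2 in the no dox replicates. Its groups did not overlap, and the log2 change was -0.86 (SE 0.18, limma adjusted p = 0.0927, and 0.00336 with the block).

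STC1, a secreted glycoprotein hormone first known for calcium and phosphate balance in fish, had the most even change of the set. STC1 had normalised counts of 4255, 3509 and 3713 in dox replicates 1, 2 and 3, and 6162, 4935 and 5091 in the no dox replicates. All dox libraries lay below all no dox libraries. The means were 3826 ± 385 in dox and 5396 ± 668 in no dox (SD, n = 3 each), and the log2 change was -0.49 (SE 0.11), or 0.710-fold. The limma adjusted p was 0.105, and 0.000102 with the replicate block (95% interval -0.59 to -0.40). The pairs differed by -0.53, -0.49 and -0.46, with an SD of 0.039, the smallest among the 7. In the authors' deposited table STC1 has a log2 fold change of -0.49 and an adjusted p of 0.0163, but is not marked as lower. There the other 5 tested factors besides IL11 have adjusted p-values between 0.0694 for CCL2 and 0.994 for CSF1. STC1 (ENSG00000159167) maps to chr8:23699428-23712320 (hg19), with 2560 to 6515 reads per library. Its paralogue STC2 had a log2 change of -0.28 (limma adjusted p = 0.721, and 0.0125 with the block).

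CSF1, which supports macrophage growth, showed no separation between the groups. It had 2357, 2580.1 and 2934 normalised counts in dox replicates 1, 2 and 3, and 2257, 2788 and 3417 in the no dox replicates. Replicate 1 was the lowest and replicate 3 the highest library of each group. The log2 change was -0.09 (SE 0.15, limma adjusted p = 0.888, and 0.285 with the block), and the 95% interval with the block ran from -0.21 to 0.035. Without pair 1 the blocked change of -0.17 passed (limma adjusted p = 0.00493). CSF1 (ENSG00000184371) maps to chr1:110452864-110473614 (hg19), with 1721 to 4640 reads per library. CSF1R, its receptor, had 0.394 ± 0.0932 FPKM in dox and 0.427 ± 0.0730 FPKM in no dox (SD, n = 3 each). CSF2, the granulocyte-macrophage factor, had 30.2, 43.0 and 42.1 normalised counts in the dox replicates and 13.1, 25.6 and 26.7 in the no dox replicates (log2 change 0.84, limma adjusted p = 0.356, and 0.0245 with the block).

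AREG, a shed ligand of the EGF receptor, had 0.0122, 0.0102 and 0.0202 FPKM in dox replicates 1, 2 and 3, and 0.0244, 0.00789 and 0.0506 FPKM in the no dox replicates. In the smallest whole-number ratio these are 2, 2 and 2 reads in dox and 3, 1 and 3 reads in no dox, so no difference was detectable. The value is uncertain, because hg19 carried a near-identical second copy, AREGB, and no source used here says how reads matching both were counted. Its receptor EGFR had 8108, 8558 and 9318 normalised counts in the dox replicates, and 6352, 7618 and 7704 in the no dox replicates. The EGFR groups did not overlap, and the log2 change was 0.26 (SE 0.10, limma adjusted p = 0.332, and 0.00337 with the block). Of 14 tested genes of EGF family ligands, receptors and sheddases, 2 rose and 3 fell with the block, 35.7% of them against 22.5% of all tested genes, the falls including the ligands HBEGF (-0.28, adjusted p = 0.00731) and EGF (-0.63, adjusted p = 0.0305). The receptor gene ERBB4 had a log2 change of 0.81 (limma adjusted p = 0.0377 with the block) that ran from 0.19 without no dox replicate 2 to 1.5 without no dox replicate 1 in the unblocked fit, and its adjusted p over the 5 blocked fits ran from 0.0154 to 0.185.

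**Figure D3:**
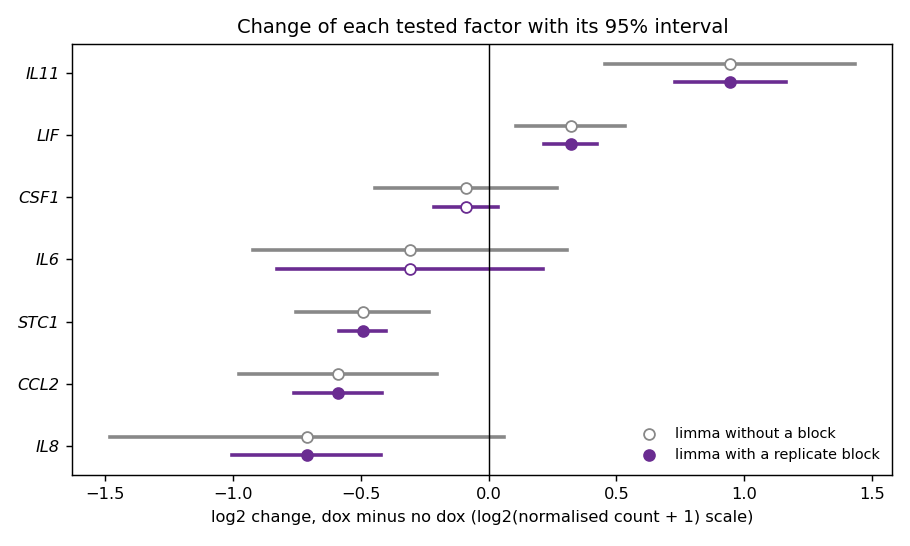
Log2 change of the 7 tested factors, dox minus no dox (x axis), with 95% intervals from limma without a block (grey) and with the replicate block (purple); filled points have an adjusted p under 0.05. The intervals with the block lie wholly above 0 for IL11 and LIF and wholly below 0 for STC1, CCL2 and IL8, and no grey point is filled.

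Whether regulators of these genes were called more often than other genes was not tested. Among 22 NF-κB subunits, inhibitors and feedback targets none passed without the block, and with it 1 rose and 5 fell, 27.3% against 22.5% of all tested genes (median log2 change -0.070, against -0.0022 over all tested genes). The falls included BIRC3, an apoptosis inhibitor induced by NF-κB, with 80.2, 53.0 and 51.5 normalised counts in the dox replicates and 131, 107 and 116 in the no dox replicates (log2 change -0.95, limma adjusted p = 0.105, and 0.00172 with the block). IER3 (-0.23) and NFKBIA (-0.30), the gene of the inhibitor IκBα, fell with the block too (adjusted p = 0.00585 and 0.0107), and TNIP1, a restraint on NF-κB, rose by 0.27 (adjusted p = 0.00155).

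The AP-1 and C/EBP list had 4 rises and 1 fall with the block among 15 tested genes, 33.3% against 22.5% of all tested genes, and none without it. CEBPB, a C/EBP factor that drives IL6 and IL8 transcription, had 3587, 4407 and 4110.4 normalised counts in the dox replicates, and 2693, 3122 and 3131 in the no dox replicates (log2 change 0.43, SE 0.10, limma adjusted p = 0.113, and 0.000211 with the block). FOSL1, an AP-1 subunit, had 7588, 7877 and 8669.8 normalised counts in the dox replicates and 10149, 10501 and 11123 in the no dox replicates, a log2 change of -0.40 (limma adjusted p = 0.0932, and 0.000223 with the block). JUNB rose by 0.25 and FOSB by 1.03 with the block (adjusted p = 0.0104 and 0.00405). Neither CEBPB nor FOSL1 had overlapping groups.

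Interleukin-1 signalling, an upstream inducer of IL6 and IL8, had 1 rise and 4 falls with the block among 10 tested genes, against 22.5% of all tested genes called. IL1R1, the receptor, changed by -0.47, the adaptor gene MYD88 by -0.23 and the kinase gene IRAK4 by -0.26. Their limma adjusted p-values with the block were 0.00977, 0.0368 and 0.0242. The receptor antagonist IL1RN changed by 0.75 (limma adjusted p = 0.0328 with the block). Without no dox replicate 1 the unblocked IL1RN change was 0.25, and its blocked adjusted p ran up to 0.0950, the value without pair 1. Of 10 factors that bind AU-rich elements and control the decay of cytokine mRNAs, HNRNPD (-0.26, adjusted p = 0.00454) and ZFP36L2 (-0.13, adjusted p = 0.0465) fell with the block, and none rose, a share below the 22.5% of all tested genes. Over the 5 blocked fits ZFP36L2 ran from 0.0117 to 0.287 in adjusted p, under 0.05 in 2.

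Among 35 other secreted factors of senescent cells 7 rose and 4 fell with the block (31.4%, against 22.5% of all tested genes), and without it 2 rose, BMP2 and GDF15. BMP2, a bone morphogenetic protein, had 276, 358 and 328 normalised counts in the dox replicates and 65.7, 129 and 90.5 in the no dox replicates, without overlap (log2 change 1.79, SE 0.24, limma adjusted p = 0.0411). GDF15, a stress-induced cytokine, had 95.3, 106 and 61.3 normalised counts in the dox replicates and 7.28, 4.60 and 7.90 in the no dox replicates (log2 change 3.53, SE 0.33, limma adjusted p = 0.0148). All its no dox libraries lay under the filter of 10 normalised counts, so GDF15 was tested only through the group where it was high, and its call is given as a description. With 1 library left out, the unblocked call of GDF15 was lost without dox replicate 2 (0.0684), dox replicate 3 (0.0522) or no dox replicate 3 (0.0607). That of BMP2 held only without no dox replicate 2, with adjusted p-values of 0.0638 to 0.153 in the other 5 omissions. Of 17 regulators of senescence and damage 2 rose and 4 fell with the block (35.3%, against 22.5% of all tested genes). Among them were CDKN1A (0.44), the p21 cell cycle inhibitor, and the lamin gene LMNB1 (-0.40). Their limma adjusted p-values were 0.000502 and 0.00509 with the block, and 0.639 and 0.253 without it. The CDKN1A groups overlapped, and its unblocked change ran from 0.19 to 0.77 with 1 library left out. HMGA2, a chromatin protein, had 4951, 5624 and 5606 normalised counts in the dox replicates and 6605, 7918 and 7921 in the no dox replicates. The HMGA2 groups did not overlap (log2 change -0.47, SE 0.10, limma adjusted p = 0.0947, and 0.000119 with the block). Over the 12 lists 49 of 151 distinct genes, or 32.5%, passed with the block, 22 higher and 27 lower, against 22.5% of all tested genes (10.2% higher and 12.4% lower). Without the block 2 passed, against 0.540% of all tested genes. Both totals include GDF15, which was tested only through the group where it was high. Over the 5 blocked fits CSF2 was under 0.05 in 2, and EGF, HBEGF, IL1R1, IL1RN, IRAK4, JUNB, MYD88 and STAT3 in 3. IER3, IL6R, NFKBIA and OSMR were under 0.05 in 4 of them, the limma adjusted p of OSMR being 0.127 without pair 3. The lists were chosen with earlier results known, so these shares are descriptions.

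**Figure D4:**
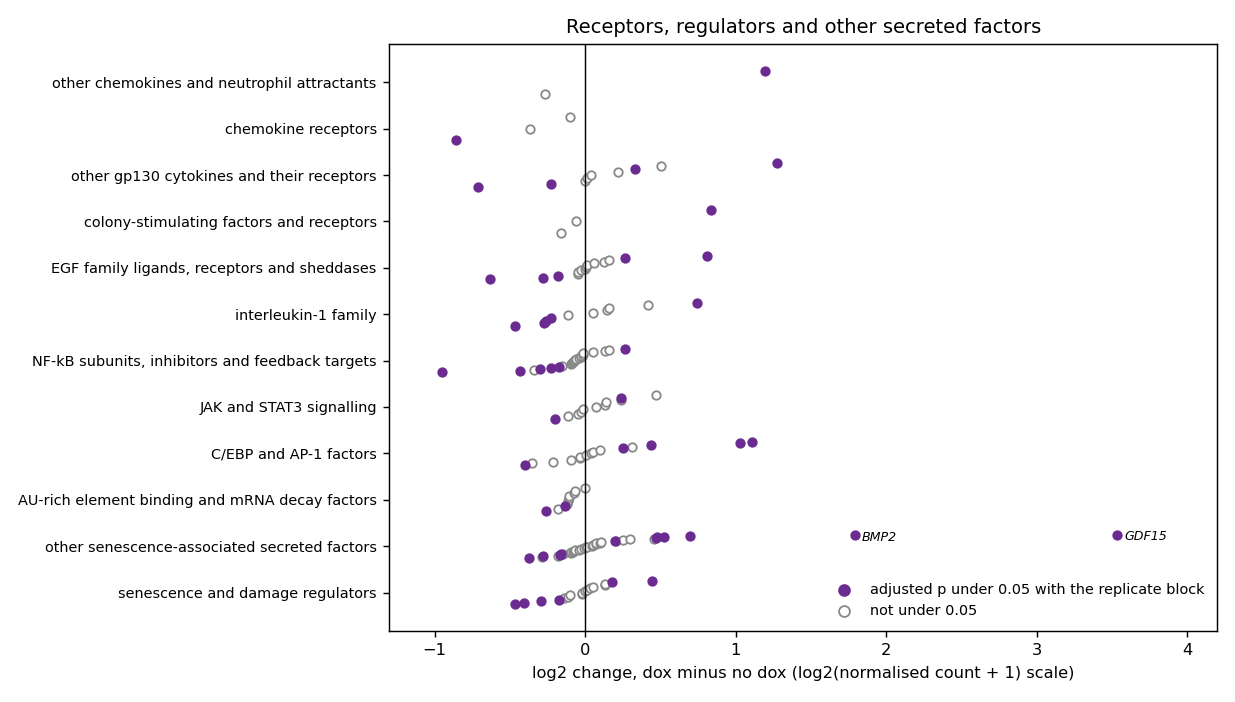
Log2 change, dox minus no dox (x axis), of each tested gene in 12 lists of receptors, regulators and other secreted factors (rows, points spread vertically for legibility); purple points have an adjusted p under 0.05 with the replicate block. Points fall on both sides of 0 in most rows, and GDF15 (3.53) and BMP2 (1.79) lie farthest right.

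The genes most like IL11 over the 6 libraries were GPR3, a G protein-coupled receptor (Pearson r = 0.998), JUNB (r = 0.996) and the forkhead gene FOXS1 (r = 0.993). GPR3 had 121, 159 and 121 normalised counts in the dox replicates and 71.8, 77.3 and 45.2 in the no dox replicates, following IL11 down to its low value in no dox replicate 3. Those most like LIF were ACSL1, an acyl-CoA synthetase (r = 0.996), RCBTB1 (r = 0.990) and LOH12CR1 (r = 0.989). These are the highest values of all tested genes with a symbol, the 6 libraries share group and replicate effects, and the correlations are descriptions of log2 levels.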

How the data were processed

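The 6 libraries were grouped and numbered by their sample titles. Upstream, bcl2fastq, Trimmomatic, TopHat, edgeR and the build hg19 are named in the submitters' processing notes; no source used here says how strand or shared reads were handled. The authors deposited normalised counts (an adjusted signal, not whole numbers) for 13161 genes, FPKM for 57773 genes and a comparison table of 13008 genes. That table holds CPM, log2 fold change, a likelihood ratio score, p-values and adjusted p-values, per the file headers. Every CPM value (100% per library, tolerance 0.01) was a whole multiple of the smallest step, which was taken as 1 read. In dox replicates 1 and 2 and no dox replicate 2 few values are low enough to test that step, so the reads of these libraries, and the edgeR and DESeq2 fits that use them, are less certain.

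limma-trend on log2(normalised count + 1), dox minus no dox, two-sided, was run on 13153 genes that reached 10 normalised counts in 3 or more libraries, and a Benjamini-Hochberg adjusted p under 0.05 was called. Such fold changes understate the change of low genes. Residual degrees of freedom were 4, and 2 with the replicate block. Deviations from the group means, over genes, correlated between same-numbered dox and no dox libraries at 0.745, 0.726 and 0.768. The numbers were therefore taken as pairs, although no label says what they share. Replicates differed beyond sampling noise (chi-square per degree of freedom at least 16.0). Reads of CXCL1, CXCL12 and AREG are the smallest whole-number ratio of FPKM times library total; floors of 3 reads cover counting error only.

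The 10 factors and 12 lists were chosen with earlier results of these data known. Named from each list were the 2 genes with the smallest limma p and up to 2 more passing with the block; STC2 and receptors outside that rule were named after their values were seen. Some genes that the rule names are not reported here. Alternatives were pseudocounts, filters, scalings, log2(FPKM + 0.1), edgeR and DESeq2 on recovered reads, the block and omitted libraries; omitting a pair from the blocked fit was added after the data were seen. The fits were tested on simulated data. Versions were 4.3.3 for R, 3.58.1 for limma, 4.0.16 for edgeR, 1.42.0 for DESeq2, 3.11.15 for Python and 3.10.9 for matplotlib.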

Additional observations from a re-analysis of the deposited data

How the results depend on the processing

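The replicate block decided the calls. With it, limma called 5 of the 7 tested factors and edgeR 5, against 0 without it; 49 and 47 related genes passed, against 2; and 2965 of all tested genes with limma, against 71, and 3047 with edgeR, against 67. DESeq2 on recovered reads, without a block, called 2 factors, 8 related genes and 522 genes in all, and its adjusted p was 0.0504 for LIF and 0.0525 for CCL2. FPKM values gave 1 related gene and 31 genes in all. With 1 pair left out of the blocked fit, chosen after seeing the data, 6, 5 and 5 factors passed without pair 1, 2 and 3, with 59, 29 and 20 related genes and 3835, 1414 and 1779 genes in all. Leaving out 1 library without a block gave 0 factors each time, 0 to 2 related genes and 3 to 21 genes in all. The log2 changes of IL11 (0.71 to 1.08), LIF (0.24 to 0.39), CCL2 (-0.73 to -0.42), IL8 (-0.95 to -0.39), STC1 (-0.57 to -0.39) and IL6 (-0.43 to -0.15) kept their sign over those 6 omissions. Those of CSF1 (-0.24 to 0.059), CSF1R (-0.30 to 0.049) and HMGB2 (-0.48 to 0.0043) did not, and the cause was not tested. Other pseudocounts, filters and scalings changed no call of the 7 factors, and no scaling moved the median of all genes by more than 0.1 on the log2 scale. IL6 was not tested at a minimum of 50 normalised counts. Depth limits IL6, CXCL1, CXCL12 and AREG most.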
